A study of Mus musculus with 2 samples.

Results

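Among the genes for platelet-derived growth factors (PDGFs) and their receptors, counts in differentiated female germline stem cells (FGSCs) were almost entirely those of 1 receptor, Pdgfra. Replicate 1 gave 726 counts of this gene, and the far shallower replicate 2 gave 2. Pdgfa, the ligand that binds this receptor, had 21 counts and 0 counts. Pdgfc had 0 counts and 1 count, while Pdgfb, Pdgfd and the receptor Pdgfrb had 0 counts in both replicates. For Pdgfrb, and possibly Pdgfd, few bases could be counted, so a 0 there says little. Every PDGF count was on an ID whose gene was inferred. The 6 genes, 4 ligands and 2 receptors, are all the PDGF genes of the mouse and were taken from 55100 genes with at least 1 listed ID. They were chosen for description with their counts in these libraries already known, so their levels are given as a description and without a test.

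RNA-seq of differentiated FGSCs comprised 2 libraries of 1 condition, replicates 1 and 2, and each library was made from 5 to 8 cells. FGSCs are cultured cells of the ovary described as able to form oocytes. They came from female CD-1 mice, were labelled as being at premeiotic interphase, and had been maintained on STO feeder cells, a mouse embryonic fibroblast line. For differentiation they were kept for 3 days on a monolayer of granulosa cells with 10 µM retinoic acid (RA) and 10 ng/mL BMP4, and without the GDNF, EGF and LIF of their usual medium. Polyadenylated RNA was captured and amplified by a Smart-seq2 protocol, so PCR copies are not separate molecules, and intervals below cover counting error only. No library of undifferentiated cells was analysed here, so no effect of RA or BMP4 can be given. The labels do not say whether the replicates came from separate cultures.

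PDGFs are secreted dimers that activate 2 related receptor tyrosine kinases of class III, PDGFRα and PDGFRβ. PDGF-A chains bind PDGFRα, PDGF-B chains bind both receptors, PDGF-C acts mainly through PDGFRα and PDGF-D mainly through PDGFRβ. Binding pairs 2 receptor chains, which phosphorylate each other and recruit adaptors that lead to the RAS, PI3K and phospholipase C pathways. The receptors are best known from fibroblasts, pericytes and other mesenchymal cells, and in the ovary from stromal and theca cells.

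Replicate 1 held 1517151 counts on 15412 of 129311 IDs and replicate 2 held 12442 counts on 4259 IDs, a 121.9-fold difference in depth. A single count therefore stood for 0.659 counts per 1000000 (CPM) in replicate 1 and for 80.4 CPM in replicate 2. A level was taken as shown from 3 counts on, which is 1.98 CPM in replicate 1 and 241 CPM in replicate 2, and a gene at 0 counts is given with this same limit. Mitochondrial genes held 11.9% and 7.82% of the counts. IDs of protein-coding genes held 1333692 of the 1517151 counts of replicate 1 and 8209 of the 12442 counts of replicate 2, a smaller part. The libraries thus differed in composition as well as in depth, and CPM values of replicate 2 carry this difference too. Values are given per library, since a mean of libraries this unequal would describe neither.

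The sequences that follow are coding stretches that set 1 listed ID of a PDGF gene apart from every other ID, because a read that lay within several IDs was largely not counted. The first belongs to the ID that held every Pdgfra count. It is exon 22 of 23 of the full-length transcript at chr5:75192431-75192672 (GRCm38, plus strand), 242 bases that encode part of the cytoplasmic tail beyond the kinase domain. The second is exon 6 of 7 of the long form of Pdgfa at chr5:138978638-138978690 (minus strand), 53 bases that encode the basic stretch by which the long PDGF-A form is held at the cell surface and matrix. Both were read from the GENCODE M21 transcripts and are printed 5′ to 3′ in the sense of the gene.
Pdgfra, exon 22: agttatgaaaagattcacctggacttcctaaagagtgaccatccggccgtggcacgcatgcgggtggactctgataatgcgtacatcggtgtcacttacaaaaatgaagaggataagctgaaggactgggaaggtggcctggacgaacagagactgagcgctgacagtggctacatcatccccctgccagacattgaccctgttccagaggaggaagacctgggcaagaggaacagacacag
Pdgfa, exon 6 of the long form: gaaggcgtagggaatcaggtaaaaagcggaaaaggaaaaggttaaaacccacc
The ID holding the Pdgfra stretch had 726 counts and 2 counts, and the ID holding the Pdgfa stretch had 0 counts in both replicates. Counts were deposited per ID without read positions, so it is not known which bases of an ID the reads covered.

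Pdgfra, the gene of PDGFRα, lies on chromosome 5 at 75152292 to 75198215 (plus strand). In replicate 1 its 726 counts (95% Poisson interval 674 to 781) corresponded to 479 CPM (444 to 515) and to 47.7 fragments per kilobase of exon and per 1000000 counts (FPKM, 44.3 to 51.3). In replicate 2 its 2 counts (0.242 to 7.22) corresponded to 161 CPM (19.5 to 581) and an FPKM of 16.0 (1.94 to 57.9). The point value was lower in replicate 2, but the FPKM intervals overlapped. At the level of replicate 1, 5.95 counts would be found in a library of the depth of replicate 2, which is within the interval of the 2 counts observed. A difference in Pdgfra level between the replicates was therefore not detectable at this depth, and 2 counts are below the smallest level taken as shown.

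Pdgfrb, the gene of PDGFRβ, lies on chromosome 18 at 61045150 to 61085061 (plus strand). It had 0 counts in both replicates, against a limit of 3 counts, which is 1.98 CPM and 241 CPM. This 0 carries little information, because nearly all of its exonic bases are listed under both of its IDs.

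Pdgfa, the gene of the PDGF-A chain, lies on chromosome 5 at 138976014 to 138997370 (minus strand). Its 21 counts in replicate 1 (13.0 to 32.1) corresponded to 13.8 CPM (8.57 to 21.2) and an FPKM of 4.44 (2.75 to 6.78). In replicate 2 it had 0 counts, where 3 counts would be 241 CPM, and at the level of replicate 1 only 0.172 counts would be found there. Replicate 2 thus could not show Pdgfa at this level. In replicate 1 the FPKM of Pdgfra was 10.8 times that of Pdgfa over all exonic bases, and their intervals did not overlap. Over the bases listed under 1 ID alone, the ratio was 3.67.

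Pdgfc, whose protein must be cut by a protease before it can bind a receptor, lies on chromosome 3 at 81036416 to 81214040 (plus strand). Replicate 1 gave 0 counts and replicate 2 gave 1 count (0.0253 to 5.57), which there corresponds to 80.4 CPM (2.03 to 448) and an FPKM of 15.8 (0.400 to 88.0). The value rests on 1 read in the shallow library and is below the smallest level taken as shown. Pdgfb, the gene of the PDGF-B chain, lies on chromosome 15 at 79995874 to 80014977 (minus strand) and had 0 counts in both replicates. Pdgfd, the gene of another ligand that needs proteolytic activation, lies on chromosome 9 at 6168584 to 6378850 (plus strand) and also had 0 counts in both. In the plot of member levels, the 2 genes past 3 counts in replicate 1 stand apart from the other 4, which are at 0.

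**Figure D1:**
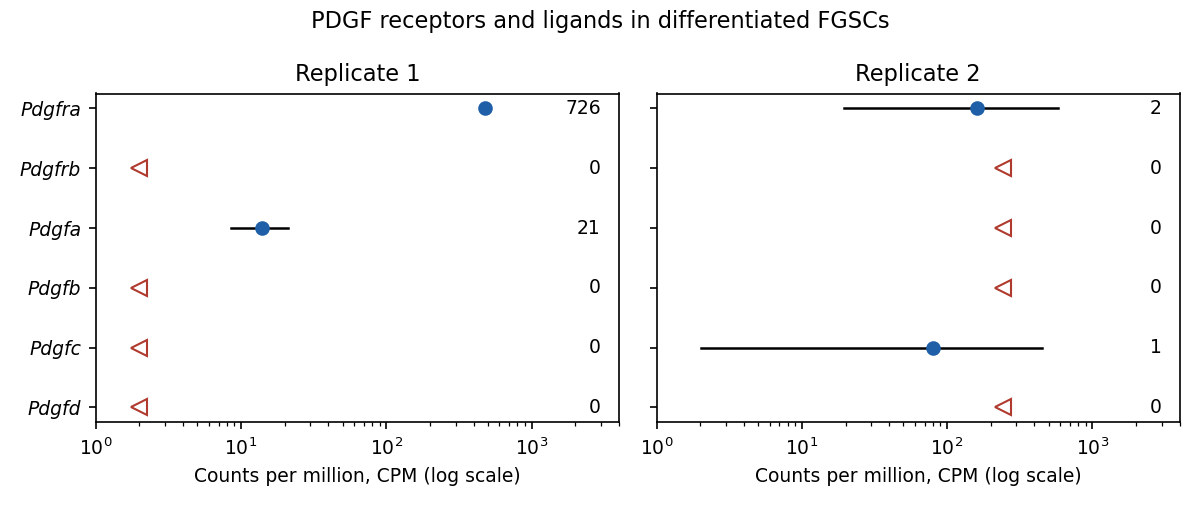
Level of each PDGF receptor and ligand gene in counts per 1000000 (CPM, log axis) in replicate 1 and replicate 2, with the count at the right of each row. Points with bars are values with exact 95% Poisson intervals. Open triangles mark genes at 0 counts at the level of 3 counts (1.98 CPM and 241 CPM), so that a level further left cannot be told from 0. For Pdgfrb, and possibly Pdgfd, few bases lie in 1 ID alone, so a level further right could also give 0. Pdgfra at 726 counts and Pdgfa at 21 counts are past that level in replicate 1 and no gene is in replicate 2.

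In replicate 1, 2 of the 6 genes had a count, which was so for 44.6% of protein-coding genes. Both had at least 3 counts, against 33.7% of the 17484 protein-coding genes compared, those without an ID of uncertain gene. In replicate 2, 0 of the 6 genes had at least 3 counts, against 3.95% of protein-coding genes, and 2 had at least 1 count, against 13.3%. Pdgfra was the only one of the 6 with a count in both replicates, which 8.74% of protein-coding genes had. Since the genes were chosen on these counts, nothing is read from the comparison with the background.

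All PDGF counts together came to 747 in replicate 1, or 492 CPM (458 to 529), and to 3 in replicate 2, or 241 CPM (49.7 to 705). Receptors, which here means Pdgfra alone, held 97.2% of these counts in replicate 1 (exact 95% binomial interval 95.7% to 98.3%). In replicate 2 they held 2 of 3 counts, or 66.7% (9.43% to 99.2%). The intervals of the replicates overlapped, and the interval of replicate 2 was too wide to show whether receptor counts outnumbered ligand counts there. The share is one of counts and not of molecules, because it also depends on how many bases of each gene could be counted.

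Counts were given for IDs, and each gene had between 1 and 6 of them, either Ensembl transcript IDs or protein accessions. Every PDGF count was on an accession, whose gene was inferred from its place in the ordered list, and with Ensembl IDs alone all 6 genes were at 0. Of 10270 Ensembl IDs whose every exonic base also lay in another ID, 1 was counted in replicate 1 and none in replicate 2. Of 64715 IDs with a base of their own, 6548 and 2153 were counted. The bases of a gene that lie in 1 ID alone, its countable bases, therefore decide how much a count of 0 can say.

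Pdgfra had the most countable bases of the 6 genes, 7845 of 10024 exonic bases (78.3%) in a single ID. Its counts were all on P26618, the UniProt entry of mouse PDGFRA, which stands for 4 annotated transcripts with a full-length or a short coding sequence. This ID had 6754 bases that no other ID shared, among them 774 bases 5′ of the coding sequence, 1873 of the 3267 coding bases of the full-length form and 3118 bases 3′ of it. The countable coding bases lay toward the 3′ side of the gene, as the map of its exons shows. The counts thus cannot be divided between the full-length and the short coding sequence. The other 5 IDs of Pdgfra had 0 counts in both replicates, with 0 to 429 bases of their own. Among these 5, the retained-intron transcript ENSMUST00000201241.1 had the most, with 429, and A0A0J9YV49 had none.

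**Figure D2:**
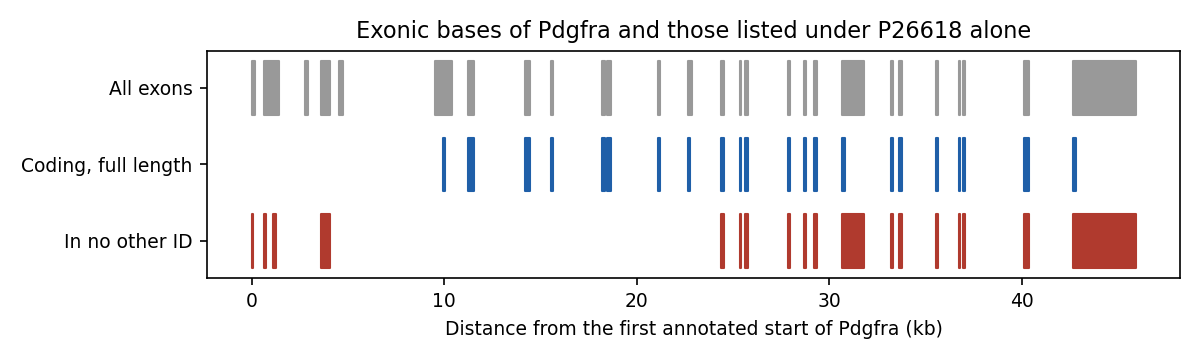
Exonic bases of Pdgfra by distance from its first annotated start in kilobases (left is 5′). The rows show the exons of all transcripts, the coding bases of the full-length form and the bases that lie in P26618 and in no other ID; 7845 of 10024 exonic bases lie in a single ID, and the coding bases of P26618 alone start well inside the coding region, away from its 5′ end.

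Pdgfa had only 832 countable bases of 3119 (26.7%), the longest stretch being 502 bases. All 21 counts were on Q99L56, which stands for the short PDGF-A form and 3 transcripts. Its 586 bases without another ID comprised 502 bases 3′ and 84 bases 5′ of the coding sequence, and no coding base. G5E891, the long form, had 69 bases of its own, 53 of which are the exon 6 stretch printed above, and 0 counts. With 69 bases against 586, the counts do not show which form was present in greater amount.

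Pdgfb and Pdgfc had more countable bases than Pdgfa, with 2636 of 4161 bases (63.4%) and 2330 of 5089 bases (45.8%) in a single ID. Of the countable bases of Pdgfb, 1103 lay in a transcript without a coding sequence. Of those of Pdgfc, 1568 lay in D6RGS6, whose coding sequence is far shorter than that of the full-length form. On all countable bases 3 counts in replicate 1 correspond to an FPKM of 0.750 for Pdgfb and 0.849 for Pdgfc, and both genes had 0 counts. On the bases of full-length Pdgfc alone, the FPKM of 3 counts is higher. The single Pdgfc count of replicate 2 was on Q8CI19, its full-length form, which had 762 bases of its own, and not on D6RGS6, which had 1568. Over all countable bases of each gene, Pdgfra stood at 61.0 in replicate 1 and Pdgfa at 16.6. In replicate 1, 3 counts of either ligand at 0 would thus lie below the level of Pdgfa, by countable bases as well as by all exonic bases.

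Pdgfrb and Pdgfd were in a different position. Pdgfrb had 126 countable bases of 5478 (2.30%), in stretches of up to 71 bases, since its 2 IDs differ by few bases. On these bases 3 counts correspond to an FPKM of 15.7 in replicate 1 and 1914 in replicate 2. A lower Pdgfrb level would not have been taken as shown in replicate 1, so its 0 does not exclude expression at the level of many other genes. For Pdgfd, 1 ID belonged to it alone and 2 more could belong to it or to a neighbour. Its countable bases were 33 of 3154 if it had 3 IDs, when 3 counts would correspond to an FPKM of 59.9 in replicate 1. They were all 3154 if it had 1 ID, when 3 counts would correspond to 0.627. The meaning of its 0 therefore depends on an assignment that could not be made.

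Across protein-coding genes in replicate 1, the share with at least 3 counts followed the number of countable bases. It was 3.58% of 865 genes with under 200 such bases, the class of Pdgfrb, and 17.9% of 3775 genes with 200 to 999, the class of Pdgfa. It was 39.4% of 4908 genes with 2000 to 3999, the class of Pdgfb and Pdgfc, and 52.6% of 3835 genes with 4000 or more, the class of Pdgfra. Genes with more countable bases are also longer and can differ in other ways, so the share describes the libraries and not a cause.

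**Figure D3:**
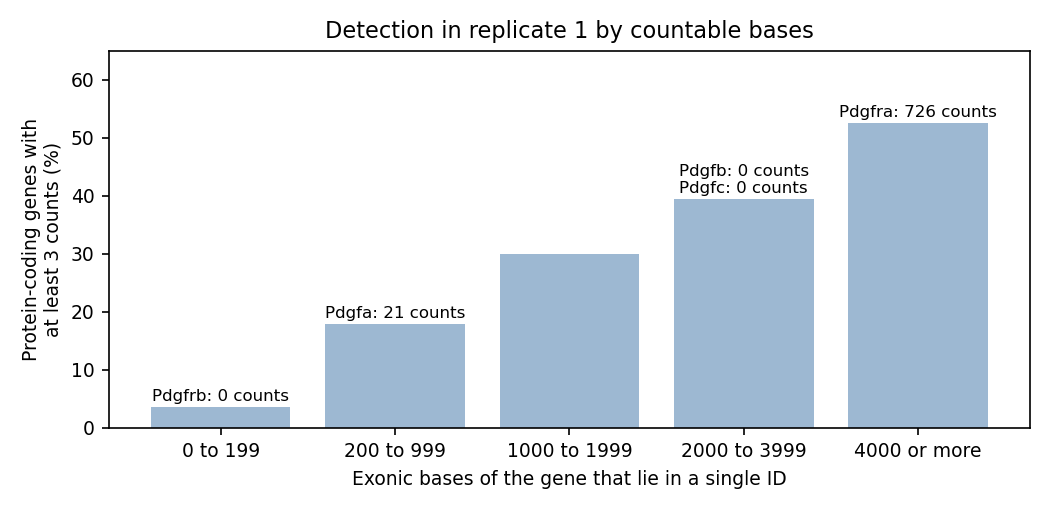
Share of protein-coding genes with at least 3 counts in replicate 1 (percent) by the number of exonic bases of the gene that lie in a single ID, with the counts of the PDGF genes of each class above the bar; Pdgfd, whose class is open, is not drawn. The share goes from 3.58% in the class of Pdgfrb to 52.6% in the class of Pdgfra.

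By FPKM, Pdgfra was at rank 862 among the 17484 protein-coding genes in replicate 1, with 4.92% of them higher. The median of the 7791 genes with a count was 3.09 and the quartiles were 0.440 and 15.5, so Pdgfra at 47.7 was above the upper quartile and Pdgfa at 4.44 was between the median and the upper quartile. Pdgfa was at rank 3473, with 19.9% of genes higher. In replicate 2 Pdgfra and Pdgfc were at ranks 1620 and 1637 of 2332 genes with a count, and these places rest on 2 counts and 1 count.

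The genes next above Pdgfra in FPKM in replicate 1 were Hnrnpa0 (47.7, 194 counts), an RNA-binding protein gene, and Cby1 and Snapc5 (47.8 each, 89 counts each). Next below were Xpo1 (47.7, 520 counts), the main exporter of proteins from the nucleus, Dkc1 (47.7, 298 counts), a subunit of the pseudouridine-forming ribonucleoprotein, and the repressor gene Rest (47.6, 522 counts). All 6 lay within the counting interval of Pdgfra. In replicate 2, 5 of these 6 genes had 0 counts and Rest had 1, beside the 2 counts of Pdgfra.

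**Figure D4:**
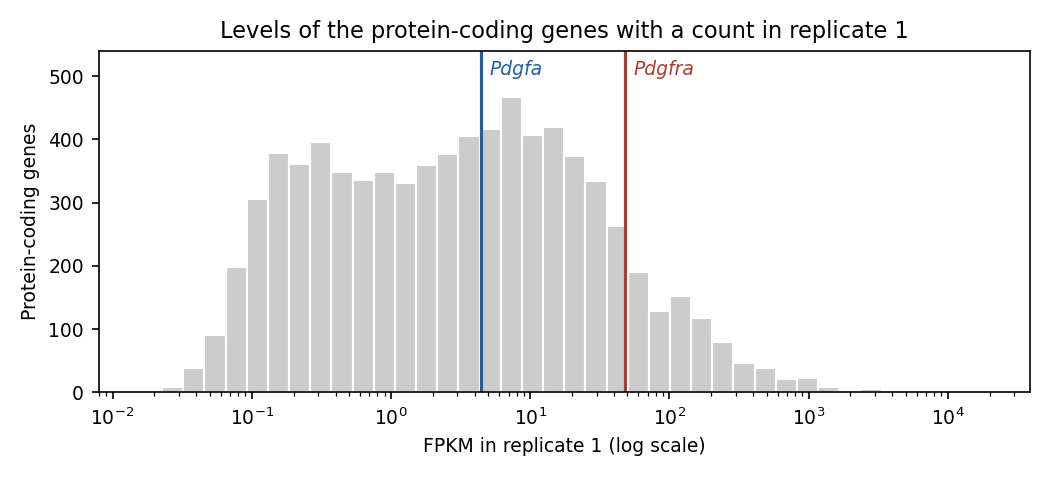
Number of protein-coding genes by FPKM in replicate 1 (log axis) for the 7791 genes with a count, with lines at Pdgfa (4.44) and Pdgfra (47.7). Pdgfa lies near the middle of the distribution and Pdgfra toward its upper end.

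Pdgfra stands in a cluster of class III and related receptor genes on chromosome 5, with Kit, the stem cell factor receptor, 377 kb and Kdr, a VEGF receptor, 735 kb downstream. Kit and Kdr each had 1 count in replicate 1 and 0 in replicate 2, with 3355 and 6759 countable bases. On the other side, Gsx2 had 0 counts in both replicates, and Chic2, 108 kb upstream, had 363 counts and 1 count. Of the 3 receptor genes of this cluster, Pdgfra was thus the one with more than 1 count. On chromosome 18, Csf1r, the receptor of CSF1, begins 15.5 kb downstream of Pdgfrb and had 1 count in replicate 1 and 0 in replicate 2 with 3018 countable bases. Its neighbour Hmgxb3 had 99 counts and 1 count, and Cdx1, 8.95 kb upstream of Pdgfrb, had 22 counts and 0 counts.

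Of the other class III receptors and their ligands, 2 of 7 genes had at least 3 counts in replicate 1 and 0 in replicate 2. Both were ligands: Kitl, the ligand of KIT, with 453 counts (FPKM 50.5) and Csf1 with 106 counts (FPKM 13.2), each with 1 count in replicate 2. The receptors Kit, Csf1r and Flt3 had 1, 1 and 0 counts in replicate 1. In this family Pdgfra was therefore the only receptor gene past 3 counts, but Pdgfrb, with 126 countable bases, could hardly be counted. For KIT and CSF1R it was the ligand gene that was past 3 counts. Of the VEGF family, which is the closest family to the PDGFs, 2 of 8 genes had at least 3 counts in replicate 1, again ligands. Vegfb had 413 counts (FPKM 170) and Vegfc 37 counts (FPKM 9.96), but 1 further ID could belong to Vegfb. Vegfa had 0 counts on 418 countable bases.

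Proteins that activate or bind PDGF ligands were counted in part. Of 9 such genes, 4 had at least 3 counts in replicate 1 and 0 in replicate 2. Plat, the tissue plasminogen activator that cuts PDGF-CC, had 172 counts (FPKM 18.2). Lrp1, a co-receptor that modulates PDGFRβ, had 72 counts (FPKM 2.68) and Nrp1 had 12 (FPKM 0.808). Furin, the convertase that cleaves the PDGF-A and PDGF-B precursors, had 0 counts in both replicates on 4915 countable bases, and so had Pcsk6 on 938 and Pcsk7 on 1048.

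Among adaptors and enzymes that dock on activated receptors, 15 of 22 genes had at least 3 counts in replicate 1 and 0 in replicate 2. The highest were Grb10 with 166 counts (FPKM 12.0), Nck2 with 65 (FPKM 9.62) and Crkl with 52 (FPKM 6.80). The regulatory subunit gene Pik3r1 had 17 counts and Plcg1, the phospholipase Cγ gene, 13. The catalytic Pik3ca and the phosphatase gene Ptpn11 had 0 counts. These levels were all below that of Pdgfra in the same unit.

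Downstream kinases and transcription factors had at least 3 counts for 15 of 22 genes in replicate 1 and for 0 in replicate 2. Jak1 led with 1691 counts (FPKM 154), followed by Map2k1, which encodes MEK1, with 453 (FPKM 88.1) and Jak2 with 393 (FPKM 51.5). Those 3 were above Pdgfra in FPKM. Stat3, a transcription factor, had 0 counts in both replicates.

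Genes that end or dampen receptor signalling had at least 3 counts for 8 of 11 genes in replicate 1 and 1 in replicate 2. Socs3 had 759 counts (FPKM 173) and Socs1 117 (FPKM 26.5), both suppressors of cytokine signalling. Immediate early genes, which many growth factors and also cell handling induce, had at least 3 counts for 9 of 11 genes in replicate 1 and 1 in replicate 2. Ier3 had 6266 counts (FPKM 3652), Junb 6330 (FPKM 1813) and Ier2 2286 (FPKM 990). At the depth of replicate 2 these levels would give 51.4, 51.9 and 18.7 counts, but 0, 0 and 1 were found, and the whole list summed to 12681 CPM and 402 CPM. Egr1 had 1609 and 3 counts (FPKM 237 and 53.8). The counts of these genes were thus far lower in replicate 2, also relative to its depth, in libraries that differed in composition as well. Signalling of PDGFRα itself was not measured, and a part of any PDGF input in these levels was not tested.

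Over all 7 lists of other genes, 55 of 90 (61.1%) had at least 3 counts in replicate 1, against the 33.7% of protein-coding genes, and 2 of 90 had them in replicate 2. IDs that could belong to another gene were left out, and with these given to each candidate, an alternative added after seeing the data, 56 of 90 reached 3 counts in replicate 1. Their median FPKM in replicate 1 was 1.10 against 0 for protein-coding genes. The protein-coding genes compared leave out those with an ID of uncertain gene, whereas the lists keep them. The 2 sets were also not matched for countable bases, which the share past 3 counts followed. Many of these genes act below a wide range of receptors, and the lists were made with earlier results of these libraries known. The 7 lists, called pathway lists or pathway genes below, include the related class III and VEGF families.

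**Figure D5:**
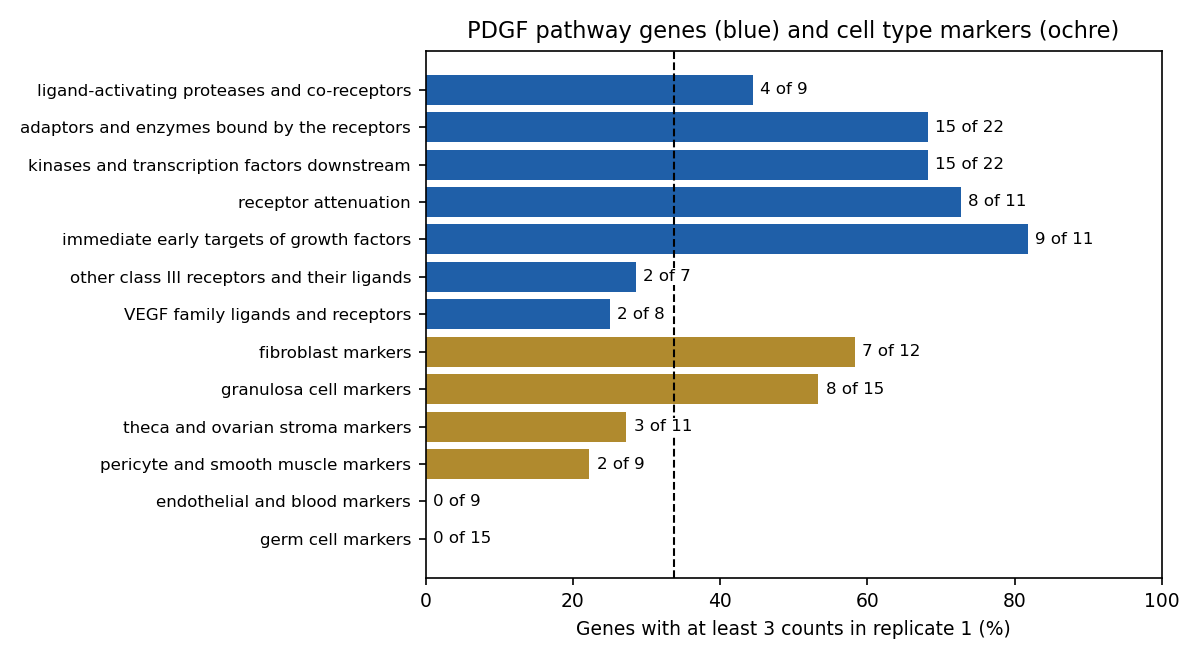
Share of genes with at least 3 counts in replicate 1 (percent) in each gene list, with the number of genes beside each bar. Blue bars are lists of PDGF pathway genes and of the related class III and VEGF families, and ochre bars are cell type markers. The dashed line is the 33.7% of protein-coding genes without an ID of uncertain gene, not matched to the lists for countable bases. Immediate early genes are at 9 of 11, and germ cell and endothelial and blood markers are at 0 by IDs of certain gene, while with IDs of uncertain gene 1 marker of each of these lists would pass.

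Because PDGFRα is a receptor of mesenchymal cells and a library pooled several cells, marker lists are given beside it. With pooled cells, fewer cells of a type and less RNA per cell cannot be told apart. Fibroblast markers had at least 3 counts for 7 of 12 genes in replicate 1 and for 3 in replicate 2, and summed to 2639 CPM and 1366 CPM. The collagen-binding proteoglycan gene Dcn had 2281 counts, Col1a2 910 and Col1a1 401 in replicate 1, while Lum had 0 and Vim, Thy1 and Fn1 had 1 each. In replicate 2 Dcn and Col1a1 had 0 counts, where the levels of replicate 1 would give 18.7 and 3.29, while Col1a2 had 6 and Fn1 had 5. The leading marker beside Pdgfra in replicate 1 was thus not counted in replicate 2, and the part of fibroblast RNA in the Pdgfra counts was not tested.

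Granulosa cell markers had at least 3 counts for 8 of 15 genes in replicate 1 and 0 in replicate 2, and summed to 629 CPM and 402 CPM. Kitl (453), Fst (229) and Gja1 (224) held most of these counts in replicate 1, and the defining genes Foxl2, Amh and Cyp19a1 had 0 counts in both replicates. Fshr had 0 counts in replicate 1 and 2 in replicate 2. For theca and ovarian stroma, 3 of 11 markers had at least 3 counts in replicate 1 and 1 in replicate 2, with sums of 58.0 CPM and 643 CPM. Nr2f2 had 46 counts, Acta2 35 and Cyp11a1 6, whereas Cyp17a1, Star, Lhcgr and Gli1 had 0. The hedgehog receptor gene Ptch1 had 6 of the 8 counts of this list in replicate 2. Neither list was tested for a part in the Pdgfra counts.

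Pericyte and smooth muscle markers, the cells known for PDGFRβ, had at least 3 counts for 2 of 9 genes in replicate 1 and 0 in replicate 2, with sums of 88.3 CPM and 80.4 CPM. Notch3 had 105 counts and Des 28, while Rgs5 had 1 and Cspg4, Mcam and Abcc9 had 0. A further ID with 3 counts in replicate 1 could be of Cspg4 or of Odf3l1. Endothelial and blood markers, which include the main sources of PDGF-B, had at least 3 counts for 0 of 9 genes in replicate 1 and 1 in replicate 2, Pecam1 with 11 counts, and summed to 0.659 CPM and 884 CPM. Cdh5, Vwf and Ptprc had 0 counts in both replicates on 4065, 7591 and 10288 countable bases. An ID with 21 counts in replicate 1 could be of Hbb-bs, a hemoglobin gene of this list, or of 2 other genes. The 0 counts of Pdgfb stood beside 1 count in replicate 1 and 11 counts in replicate 2 on the IDs certain to be of this list. A relation between them was not tested.

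Germ cell markers, the check of the labelled cell type, had at least 3 counts for 0 of 15 genes in replicate 1 and 1 in replicate 2, and summed to 0.659 CPM and 402 CPM, over IDs certain to be theirs. The single count of replicate 1 was on Kit, and the 5 counts of replicate 2 were on Tfap2c. Ddx4, Dazl, Pou5f1 and Stra8 had 0 counts in both replicates. By other measures, the study reported Stra8 and Sycp3 in RA-treated FGSCs by RT-PCR, and Stra8 also by immunofluorescence. Of the 15 genes, 5 also or only have IDs of uncertain gene, and 1 of these IDs had many counts: Q9CQW9, with 10476 counts in replicate 1 and 5 in replicate 2, which by its place could be of Ifitm3 or of Ifitm1. Ifitm3 is a marker of early germ cells and is also induced by interferon in many other cells. With such IDs given to each candidate gene, 1 of 15 markers had at least 3 counts in replicate 1 and 2 in replicate 2, and the sums were 6906 CPM and 884 CPM. Several of these genes could hardly be counted, with 254 countable bases for Ddx4 and 455 for Stra8, but Pou5f1, Prdm1 and Gdf9 had 1570, 1554 and 1458. The Pdgfra counts of replicate 1 thus came from a library with 0 counts of Ddx4, Dazl and Pou5f1 and with many on an ID that may be of Ifitm3, and the cell of origin of the Pdgfra counts was not tested.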

How the data were processed

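For each of the 2 libraries, the authors deposited a table of raw counts, 1 whole number per ID. The study's methods describe TopHat and Cufflinks, whereas the submitters' processing notes name FastQC, Trim Galore, HISAT2 2.2.1, featureCounts and mm10; the annotation counted is not given in the sources used here. Ensembl IDs were looked up in GENCODE M21 (GRCm38, that is mm10). Genes of the 53245 protein accessions are inferred: IDs are ordered by chromosome and start, so candidates were unlisted coding transcripts starting between the annotated neighbours, taken once per coding sequence and narrowed by rank. This placed 93.3% of accessions in 1 gene. In a check, 50% of Ensembl IDs were hidden and 20% of the hidden IDs were left out. Of the 29994 remaining hidden IDs, 19438 were placed in 1 gene, and 19424 of these were right (99.9%). The hidden IDs were Ensembl IDs, so this share need not hold for protein accessions. Simulated accessions were also placed as a test on simulated data, 38464 of 45913 in 1 gene. IDs of 1 gene held 93.9% and 95.9% of the counts.

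Counts were summed per gene. FPKM was computed as counts per kilobase of all exonic bases and per 1000000 counts of the library, since the methods give levels in FPKM. Intervals are exact 95% Poisson for counts and Clopper-Pearson for shares, computed with Python 3.11.15, numpy 2.4.6, pandas 2.3.3 and scipy 1.17.1 and drawn with matplotlib 3.10.9. Both libraries belong to 1 group, so no test was run. The members and all lists were chosen with earlier results of these data known. Genes named were the 6 members, the 3 highest by FPKM of each pathway list, those with 3 counts in both replicates, the 3 genes on either side of Pdgfra, and the leading markers and defining markers at 0. The genes flanking the receptors and other list genes named were chosen after their values were seen. Some genes that this rule names are not reported here. Alternatives concerned the IDs, gene length, library total, count minimum and replicates.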

Additional observations from a re-analysis of the deposited data

How the results depend on the processing

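With only Ensembl transcript IDs, which need no inferred gene, counts and FPKM of Pdgfra in both replicates, of Pdgfa in replicate 1 and of Pdgfc in replicate 2 all became 0, as every PDGF count is on a protein accession. The members with at least 3 counts in replicate 1 then numbered 0 in place of 2 and the pathway genes 9 in place of 55, and the receptor share had no value. Giving ambiguous accessions to each candidate gene changed no member's count and, as an alternative added after seeing the data, made the pathway genes 56. Over exonic bases of 1 listed transcript, the FPKM in replicate 1 was 69.7 for Pdgfra in place of 47.7 and 16.6 for Pdgfa in place of 4.44, since the length is shorter. With the Pdgfra isoforms joined, a choice made after seeing the data, these were 61.0 and 16.6. Against counts outside mitochondria or of protein-coding genes, Pdgfra was at 54.2 and 54.3. Pdgfra was at rank 280 by counts not divided by length, in place of 862, and at 1243 among all genes. Members with at least 1 count in replicate 2 numbered 2, against 0 with at least 3. The share of PDGF counts on receptors, 97.1% over both replicates, ranged from 66.7% to 97.2% when a replicate was left out, and the lowest was without replicate 1, which leaves 3 counts. No paired analysis was possible because the replicates are of a single group. Depth limits replicate 2 to levels above 241 CPM.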
